A study of Mus musculus with 4 samples.

Results

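The bone morphogenetic protein (BMP) and TGF-beta superfamily was examined in embryonic mouse hearts that lack Salvador. Its members were taken by symbol from the array's gene table: the BMP, growth and differentiation factor (Gdf), TGF-beta, inhibin and Nodal ligands, the Acvr, Bmpr and Tgfbr receptors, the Smads, and the antagonists noggin, chordin, gremlin, follistatin and the Lefty proteins. This gave 53 of the 16675 genes tested: 26 ligand genes, 12 receptors, 8 Smads, 6 antagonists and Bmp1, which carries a BMP name but encodes a tolloid-type protease. RNA came from whole hearts of C57bl/6 x129 hybrid embryos at embryonic day 9.5. Control hearts are labelled wild-type, and Salv CKO hearts carried a conditional knockout of Salvador (Sav1), a scaffold protein of the Hippo kinase cascade. Each group had 2 pools of hearts, described as biological replicates, and each pool was hybridised to 1 one-colour array. The sources used here name neither the Cre line nor the cells in which it acts, the size of a pool or the Cre status of controls.

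Superfamily ligands are secreted dimers that bring together type I and type II receptor kinases. BMP-type receptors pass the signal to Smad1, Smad5 and Smad9, TGF-beta and activin receptors to Smad2 and Smad3, and both branches share Smad4, while Smad6 and Smad7 inhibit. In the forming heart, BMP signals act in the specification of heart muscle, and BMP and TGF-beta signals act in the formation of the endocardial cushions from endocardium.

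Levels are log2 intensities after quantile normalisation, and every difference is Salv CKO minus control on that scale, with its standard error and n = 2 pools per group. A log2 level over 4 (intensity 16) counted as above background, and 42 of the 53 members were above it on all 4 arrays. Another 5 members, Gdf7, Acvr2a, Fst, Lefty1 and Lefty2, were not above it on any array. The number of arrays limits the precision, and an exact permutation test on 2 against 2 pools, two-sided, has 0.333 as its smallest p. Significance therefore rests on limma's moderated test, which shares the spread across genes, adjusted over all genes. The brightest probes had reached the scanner's ceiling: 68 to 122 probes per array lay within 1% of its highest value, none of them a member's. Arrays within a group correlated at 0.946 and 0.947 over all probes, and arrays of different groups at 0.937 to 0.942.

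**Figure D1:**
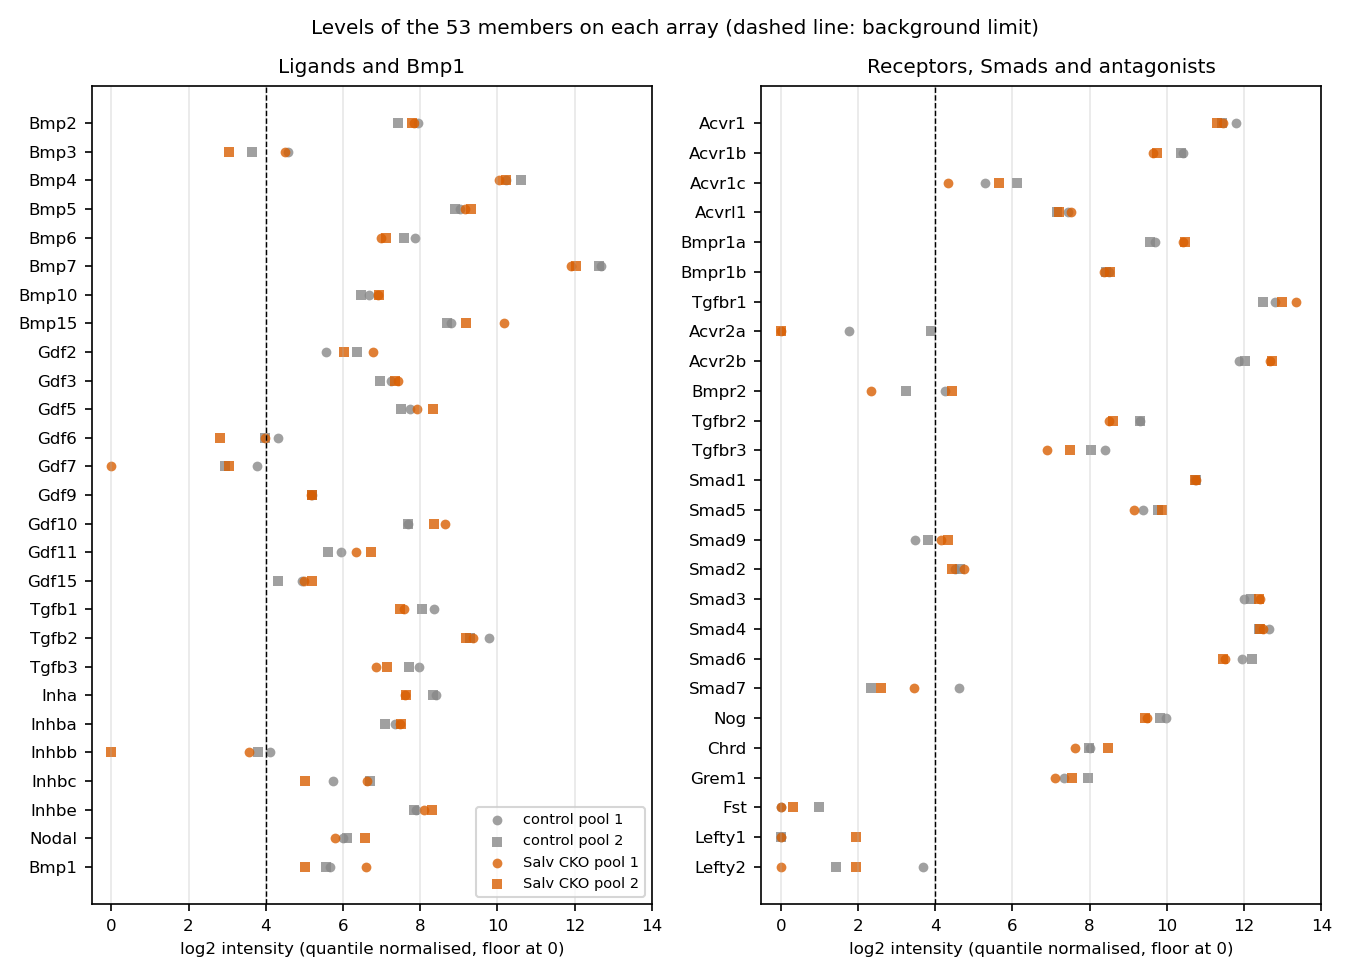
Log2 intensity (x axis) of each of the 53 members (y axis) in control pools 1 and 2 (grey) and Salv CKO pools 1 and 2 (orange), with ligands and Bmp1 on the left and the other members on the right. The dashed line is the background limit of 4; Bmp7, Acvr2b, Bmpr1a, Tgfbr2 and Smad6 show a clear gap between grey and orange, whereas the 4 points of Smad1 lie on each other. Levels of different genes come from different probes and are not comparable with each other.

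In the Salv CKO pools 3 members rose, Gdf10, Bmpr1a and Acvr2b, and 5 fell, Bmp7, Inha, Acvr1b, Tgfbr2 and Smad6, at a limma adjusted p under 0.05. The changes were between 1.51-fold (Smad6) and 1.77-fold (Gdf10). The 8 called members are 15.1% of 53, against 10.6% of all genes (4.92% higher and 5.7% lower); the share was 14% of the genes whose probe exceeded background on every array. All 8 calls lay among the 42 members above background throughout. Receptors held 4 of the 8 calls with 12 genes, ligands 3 with 26, Smads 1 with 8, and antagonists 0 of 6 (1 of them, Nog, at an unadjusted limma p under 0.05). The median difference over the 53 members was -0.06, beside -0.04 over all genes. The pools of the groups did not overlap for 27 members, 15 higher and 12 lower in Salv CKO, which is 50.9% against 54.2% of all genes (25.2% higher and 29% lower) and 61.2% of the genes measured above background throughout. A further 8 members had an unadjusted limma p under 0.05 without passing the adjusted threshold. In all, 16 of 53 members had such a p, beside 4460 of 16675 genes (26.7%).

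The directions and the significance of these calls had limits of different kinds. With any 1 array left out, no call held in limma, in fits where 1 group has a single array. The 8 differences kept their sign there, which was fixed in advance, since the groups of each do not overlap. In limma, 0 genes were also called when the spread was taken as the same at every intensity. At an unadjusted p under 0.05 that limma fit had 16 of 53 members, beside 3578 of 16675 genes. Over the 15 alternatives, each of the 8 was past the threshold in 5 (Gdf10) to 9 (Acvr1b). The scaling set the balance of directions over the whole array: 46.3% of all calls were higher after quantile normalisation, 40.6% with arrays divided by their 75th percentile, 22.3% with arrays centred on their median and 6.88% without any scaling of the deposited values. The members, with 8 to 13 calls, moved with it, at 37.5%, 33.3%, 25% and 0% in that order. Without scaling, the median of all genes above background was itself at -0.44.

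**Figure D2:**
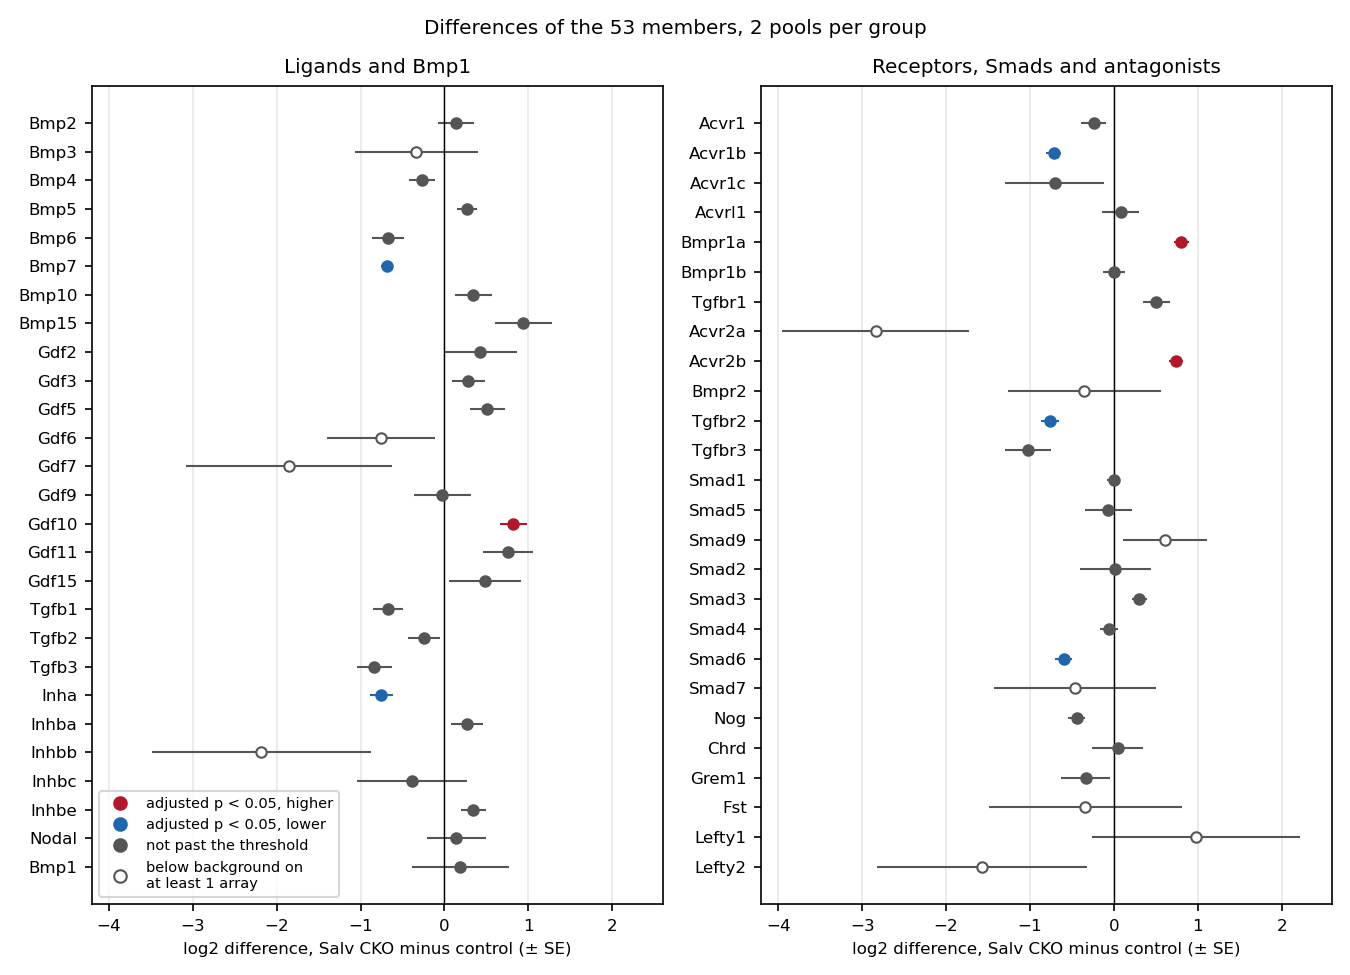
Log2 difference (x axis, Salv CKO minus control, error bars ± SE from limma, 2 pools per group) of the 53 members (y axis). Red and blue mark the 3 higher and 5 lower members with an adjusted p under 0.05, and open circles mark members below background on at least 1 array, among them the widest error bars (Inhbb, Lefty2, Lefty1).

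To show the regulatory sequence next to 4 of the called genes, the 250 bases before the RefSeq start of Bmpr1a, Acvr2b, Tgfbr2 and Smad6 are given 5′ to 3′ on the gene's strand (GRCm38.p6). Capitals mark matches to 3 motifs, searched on both strands. The BMP Smad motif was searched as GGCGCC, which reads the same on both strands. The half-site bound by Smads was searched as CAGAC, which reads GTCTG when it lies on the opposite strand. The motif of Tead factors, the DNA-binding partners of the Hippo effector Yap, was searched as GGAATG, which reads CATTCC when it lies on the opposite strand. No match overlaps another in these windows.
Bmpr1a, chr14:34502547-34502796, minus strand: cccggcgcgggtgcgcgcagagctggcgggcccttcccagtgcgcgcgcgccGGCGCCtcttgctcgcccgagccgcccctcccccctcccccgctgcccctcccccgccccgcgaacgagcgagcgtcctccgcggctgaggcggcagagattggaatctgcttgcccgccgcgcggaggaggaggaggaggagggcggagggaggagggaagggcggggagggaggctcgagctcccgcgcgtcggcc
Acvr2b, chr9:119401928-119402177, plus strand: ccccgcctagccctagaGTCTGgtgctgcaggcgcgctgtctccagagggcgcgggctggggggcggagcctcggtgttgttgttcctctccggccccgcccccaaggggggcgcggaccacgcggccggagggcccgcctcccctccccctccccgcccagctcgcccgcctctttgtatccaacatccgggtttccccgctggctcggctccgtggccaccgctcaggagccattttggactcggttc
Tgfbr2, chr9:116175364-116175613, minus strand: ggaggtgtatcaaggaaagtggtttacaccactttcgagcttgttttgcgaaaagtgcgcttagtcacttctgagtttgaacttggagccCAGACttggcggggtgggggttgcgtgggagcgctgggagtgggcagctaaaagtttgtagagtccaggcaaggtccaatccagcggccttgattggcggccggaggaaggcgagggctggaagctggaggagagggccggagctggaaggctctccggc
Smad6, chr9:64022060-64022309, minus strand: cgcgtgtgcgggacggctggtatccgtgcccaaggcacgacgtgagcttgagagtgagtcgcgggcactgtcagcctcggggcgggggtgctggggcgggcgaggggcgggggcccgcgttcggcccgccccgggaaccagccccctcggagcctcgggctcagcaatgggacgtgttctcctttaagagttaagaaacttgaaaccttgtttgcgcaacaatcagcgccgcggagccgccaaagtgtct

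Bmpr1a held 1 BMP Smad motif in a window of 78.8% G and C, Acvr2b and Tgfbr2 each held 1 Smad half-site, and Smad6 held none of these motifs. The BMP Smad motif occurred in 9.59% of all 32851 windows of this length in the RefSeq set, the half-site in 42.2% and the Tead motif in 12.6%. RefSeq windows were matched for 35 of the 53 members (42 windows): 16.7% of these held the BMP Smad motif, 40.5% the half-site and 4.76% the Tead motif. These matches are letters in a short window and say nothing about binding, which was not measured.

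Of the BMP ligands, Bmp7 fell. Bmp7 acts in the early heart together with its close relatives Bmp5 and Bmp6. Its log2 level was 12.67 and 12.63 in the control pools and 11.90 and 12.03 in the Salv CKO pools, so both mutant pools lay well below both controls. The difference was -0.69 ± 0.08 (1.61-fold lower, limma adjusted p = 0.0131). It ranged from -1.21 to -0.62 over the 15 alternatives and was past the threshold in 8 of them. Only the other scalings could turn the sign of Bmp7, which held in each. Bmp6 stood at 7.86 and 7.58 in controls and at 6.99 and 7.10 in Salv CKO, without overlap, but -0.67 ± 0.19 did not pass (adjusted p = 0.101). Bmp5 was at 9.03 and 8.89 against 9.15 and 9.31, a difference of 0.27 ± 0.12 in the other direction that did not pass either (adjusted p = 0.241). The difference between Bmp7 and its relatives was not itself tested.

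Bmp2 and Bmp4, the ligands best known from the atrioventricular canal, the outflow tract and heart muscle specification, did not pass the test. Bmp4 was at 10.21 and 10.61 in controls and 10.05 and 10.23 in Salv CKO, with overlapping groups (-0.27 ± 0.16, adjusted p = 0.369). Bmp2 lay between 7.44 and 7.93 on all 4 arrays, a difference of 0.13 ± 0.22 (adjusted p = 0.748). Bmp10, a ligand of trabecular heart muscle, was at 6.67 and 6.46 in controls and 6.90 and 6.92 in Salv CKO (0.35 ± 0.22, adjusted p = 0.395). Its groups did not overlap, yet the gap was within the spread that limma allows at this intensity. Bmp15, known from the oocyte, had a difference of 0.94 ± 0.34 that rests mostly on Salv CKO pool 1 (10.18, against 9.17 in pool 2 and 8.79 and 8.68 in controls; adjusted p = 0.162). Bmp3 was above background on 2 of the 4 arrays, with overlapping groups.

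Among the 9 Gdf genes, Gdf10, a relative of Bmp3, rose on the probe used. Control pools were at 7.67 and 7.69 and Salv CKO pools at 8.65 and 8.35, a difference of 0.82 ± 0.16 (adjusted p = 0.0448). Its other probe, also above background on all arrays, went the other way, from 6.69 and 6.46 to 6.19 and 4.82 (-1.07 ± 0.52, no call), and the mean of both was -0.13. The direction of Gdf10 thus depends on the probe. Gdf11, which patterns the body axis, moved from 5.94 and 5.60 to 6.34 and 6.72 without overlap (0.76 ± 0.30, adjusted p = 0.195). Gdf5, a joint and skeletal factor, was at 0.51 ± 0.21 (adjusted p = 0.205), with -0.18 on its other probe. Gdf3, Gdf15 and Gdf2 had differences of 0.28 to 0.48, Gdf9 was at -0.02, and Gdf6 and Gdf7 were near or below background, none of them called.

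All 3 TGF-beta ligands had negative differences and none passed the test. Tgfb3 was at 7.97 and 7.70 in controls and at 6.86 and 7.14 in Salv CKO (-0.84 ± 0.21, adjusted p = 0.0716). Tgfb1 was at 8.35 and 8.05 against 7.58 and 7.47 (-0.67 ± 0.18, adjusted p = 0.0831). For both genes the mutant pools lay below both control pools, and both passed when only genes above background were tested. Tgfb2, the TGF-beta ligand of the cushion-forming muscle, had overlapping groups (9.77 and 9.28 against 9.36 and 9.19) and nearly equal differences on its 2 probes, -0.25 and -0.26.

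Of the inhibin and activin subunits, Inha fell. Inha encodes the alpha subunit that turns activins into inhibins, which oppose activin signalling. It was at 8.40 and 8.34 in controls and at 7.61 and 7.62 in Salv CKO, with pools of a group almost level with each other (-0.75 ± 0.14, 1.69-fold lower, adjusted p = 0.0366). The activin subunit Inhba was at 7.34 and 7.08 against 7.47 and 7.49 (0.27 ± 0.19, adjusted p = 0.44), and Inhbe was at 0.34 ± 0.15 (adjusted p = 0.232). Inhbb was above background on 1 array, a control, and Inhbc and Nodal, a ligand of left-right patterning, overlapped between groups. The protease Bmp1, which cleaves chordin and procollagens, was at 0.19 ± 0.58 on the probe used and at -0.08 ± 0.33 on the other.

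Receptors changed in both directions. Among the type I receptors, Bmpr1a, the BMP receptor needed for early heart formation, rose on the probe used. Its log2 level was 9.69 and 9.57 in controls and 10.41 and 10.46 in Salv CKO (0.80 ± 0.09, 1.74-fold, adjusted p = 0.0134). The other probe of Bmpr1a, above background throughout, showed no such gap: 9.92 and 9.59 in controls and 10.06 and 9.39 in Salv CKO (-0.03 ± 0.25). Acvr1b, the activin and Nodal type I receptor, fell on the probe used, from 10.43 and 10.37 to 9.64 and 9.73 (-0.72 ± 0.09, adjusted p = 0.0158). Both other probes of Acvr1b lay on the opposite side, at 0.75 ± 0.20 and 0.66 ± 0.53 without a call, and the mean of its probes was 0.23. Acvr1b is therefore listed as lower for 1 of its 3 probes only.

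The other type I receptors were not called. Acvr1, a BMP receptor of the cushions, was at 11.80 and 11.42 against 11.44 and 11.30 (-0.24 ± 0.15, adjusted p = 0.387). Tgfbr1, the TGF-beta type I receptor, was at 12.81 and 12.50 in controls and 13.33 and 12.98 in Salv CKO, without overlap (0.51 ± 0.16, adjusted p = 0.127). Acvrl1, the type I receptor of endothelium, was at 0.08 ± 0.22 (adjusted p = 0.855) and Bmpr1b at 0.00 ± 0.13 (adjusted p = 0.998). Acvr1c overlapped between groups (-0.71 ± 0.59).

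The type II receptors split. Acvr2b, which binds activins, Nodal, Gdf11 and BMPs, rose from 11.88 and 12.02 to 12.66 and 12.72 (0.74 ± 0.08, 1.67-fold, adjusted p = 0.0121). It had a single probe and separate groups, so only the other scalings could turn its sign, which held in each. Over the 15 alternatives its difference ranged from 0.21 with the values as deposited (no call, adjusted p = 0.359) to 0.81. Tgfbr2, the type II receptor for TGF-beta, fell from 9.32 and 9.31 to 8.50 and 8.61 (-0.76 ± 0.11, 1.69-fold lower, adjusted p = 0.0213); its other probe was below background on every array. Both genes thus had clearly separate groups, in opposite directions. Tgfbr3 (betaglycan), the co-receptor that presents TGF-beta2 and inhibin, was at 8.39 and 8.02 in controls and 6.89 and 7.48 in Salv CKO. Its difference of -1.02 ± 0.27 did not pass (adjusted p = 0.0834), and its other probe gave 0.30 ± 0.23. Acvr2a was not above background on any array, and Bmpr2 was above it on 2 of 4, so neither gave a usable difference.

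**Figure D3:**
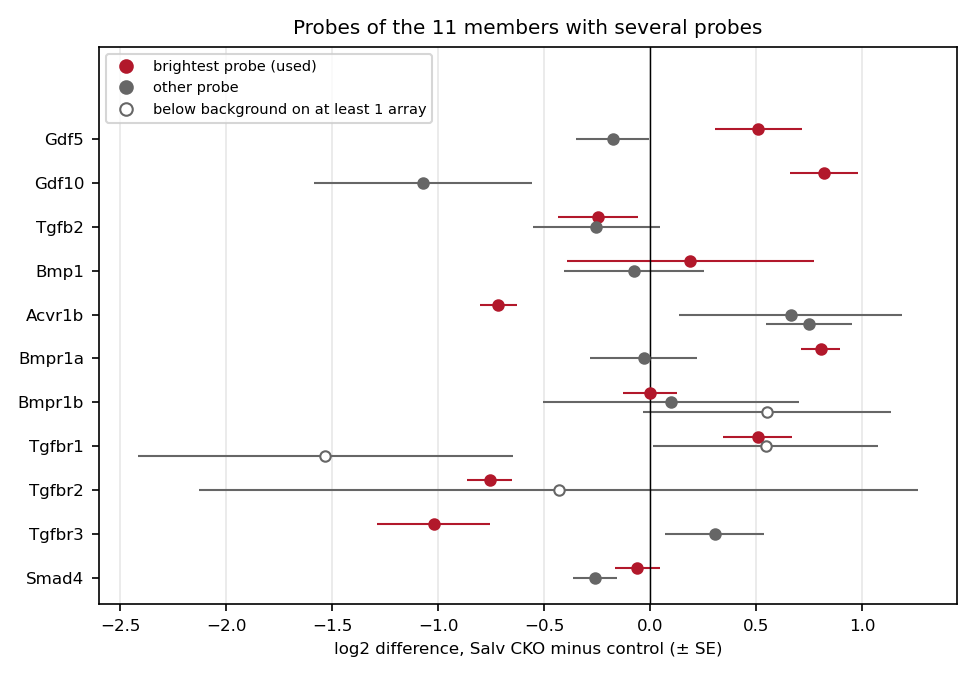
Log2 difference (x axis, Salv CKO minus control, ± SE) for every probe of the 11 members that have several (y axis). Red is the brightest probe, used for the calls, grey the others, and open circles are probes below background on at least 1 array; the probes of Acvr1b, Gdf10 and Tgfbr3 lie on opposite sides of 0, those of Tgfb2 lie together.

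Of 9 members with at least 2 probes above background on all arrays, 7 had probes of opposite sign (77.8%, against 43.6% of the 2139 such genes on the array), though some of these differences were close to 0. Among the 8 called members, 4 had a single probe (Bmp7, Inha, Acvr2b and Smad6) and 4 had several. With the mean of all probes of a gene, those 4 single-probe members were the ones called. Their differences cannot change under that setting, so it is no check of their probes. For Tgfbr2 that mean takes in the probe below background. No source used here places the probes in their transcripts, and whether they read different transcript forms was not tested.

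**Figure D4:**
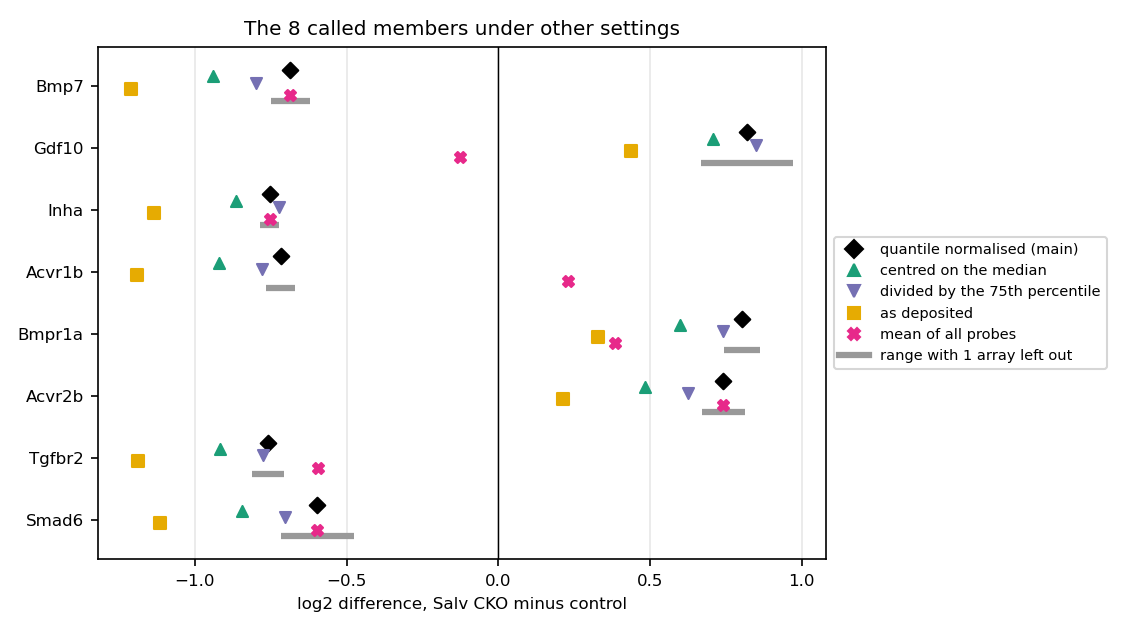
Log2 difference (x axis, Salv CKO minus control) of the 8 called members (y axis) under 4 scalings (black diamond, green and purple triangles, yellow square), with the mean of all probes (pink cross), and the range over the 4 fits with 1 array left out (grey bar). Only the pink crosses of Gdf10 (-0.13) and Acvr1b (0.23) lie across 0 from the main value. Yellow squares lie left of the black diamonds throughout. The median of all genes above background was -0.44 in the deposited values, beside -0.04 after quantile normalisation.

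Among the Smads, 1 of 8 passed the test. Smad6, the inhibitory Smad that acts mainly on BMP signals and is known from the endocardial cushions and outflow tract, fell from 11.96 and 12.20 to 11.51 and 11.45 (-0.60 ± 0.10, 1.51-fold lower, adjusted p = 0.0314). Both mutant pools lay below both controls, and only the 3 other scalings could turn the sign, which held in each. The difference ranged from -1.11 to -0.48 over the 15 alternatives. The call held in 8 of them, and was lost, for example, with a floor of 16 (adjusted p = 0.112) or 64 (adjusted p = 0.116). The other inhibitory Smad, Smad7, was above background in 1 control pool only. Of the Smads that BMP receptors act on, Smad1 was at 10.72 and 10.75 in controls and 10.75 and 10.72 in Salv CKO, a difference of 0.00 ± 0.07 (adjusted p = 0.988). Smad5 overlapped widely (9.38 and 9.78 against 9.14 and 9.88). Smad9 was above background in both Salv CKO pools (4.16 and 4.34) and in neither control (3.48 and 3.81), at least 1.19-fold higher when the controls are set at the background limit, with no call (adjusted p = 0.514).

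On the TGF-beta and activin side, Smad3 was at 11.99 and 12.18 in controls and 12.40 and 12.37 in Salv CKO, without overlap (0.30 ± 0.09, adjusted p = 0.106). Smad2 was just above background on all arrays, between 4.44 and 4.74, with a difference of 0.02 ± 0.42 (adjusted p = 0.989). The shared Smad4 was at 12.65 and 12.39 against 12.50 and 12.42 (-0.06 ± 0.11, adjusted p = 0.766), with -0.26 ± 0.10 and no call on its other probe. The 1 call among the 8 Smads (12.5%) stood beside 10.6% of all genes called, and Smad2, Smad7 and Smad9 lay near the background limit. Whether the Smads that inhibit the signal differed from those that carry it was not tested.

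No antagonist passed the test. Noggin (Nog), which binds and blocks BMPs, came closest: 9.98 and 9.83 in controls and 9.48 and 9.44 in Salv CKO, with separate groups (-0.44 ± 0.10, adjusted p = 0.0587). It was past the threshold under 6 of 15 alternatives, its adjusted p ranging from 0.00911 to 0.249. Chordin (Chrd) was at 8.02 and 7.97 in controls and spread from 7.62 to 8.46 in Salv CKO (0.05 ± 0.30). Gremlin (Grem1) overlapped between the groups (-0.33 ± 0.29, adjusted p = 0.537). Follistatin (Fst), which binds activins, and the Nodal antagonists Lefty1 and Lefty2 were not above background on any array.

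Genes of the pathway outside the family were taken from 6 lists, with a probe for 71 of 75 genes: 10 rose and 9 fell, with a median of -0.01. Over all genes, 10.6% were called (4.92% higher and 5.7% lower). That share stands beside the counts of these lists and of the marker lists below. All these lists were chosen with earlier results of these data known. Of 22 secreted modulators, 1 rose and 3 fell. Ltbp4, a latent TGF-beta binding protein, fell from 9.84 and 9.97 to 8.42 and 8.62 (-1.38 ± 0.12, adjusted p = 0.00946). The proprotein convertases Furin and Pcsk6, which cut superfamily precursors into active ligands, fell by 0.75 and 1.04 on the log2 scale (adjusted p = 0.017 and 0.0274). Decorin (Dcn), a proteoglycan that binds TGF-beta, rose from 7.65 and 7.23 to 9.08 and 8.77 (1.48 ± 0.21, adjusted p = 0.0205). Ltbp1 was at 0.06 ± 0.20 (adjusted p = 0.889), with -0.41 ± 0.18 and no call on its other probe. The further ligands Amh and Mstn gave no call.

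Of 8 co-receptors and decoys, 1 rose and 2 fell. Endoglin (Eng), a TGF-beta and BMP co-receptor of endothelium, fell from 12.32 and 12.39 to 11.27 and 11.27 (-1.08 ± 0.07, adjusted p = 0.00661), and its other probe gave -1.03. The related BMP co-receptors Hfe2 (hemojuvelin) and Rgma went in opposite directions: Hfe2 fell by 0.41 (adjusted p = 0.0265), and Rgma rose from near background (4.12 and 3.71) to 5.84 and 6.60 (adjusted p = 0.0423). The decoy receptor Bambi was at 0.21 ± 0.40 (adjusted p = 0.792). Of 18 intracellular regulators, 3 rose and 2 fell. The Smad phosphatase Ppm1a rose by 0.79 ± 0.06 on the probe used and was at -0.07 on its other probe, and the ubiquitin ligase Rnf111 rose by 0.77 ± 0.13, with -0.15 ± 0.88 on its other probe above background. The co-repressor Ski fell by 0.75 and Fkbp1a, a guard of type I receptors, by 0.46 on the log2 scale. Their other probes, dimmer but above background on all arrays, gave -0.38 ± 0.46 for Ski and 0.10 ± 0.49 for Fkbp1a. Trim33, a Smad4 regulator named here after its value was seen, rose by 0.46 ± 0.09, and its 2 other probes above background throughout gave 0.48 and 0.59.

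**Figure D5:**
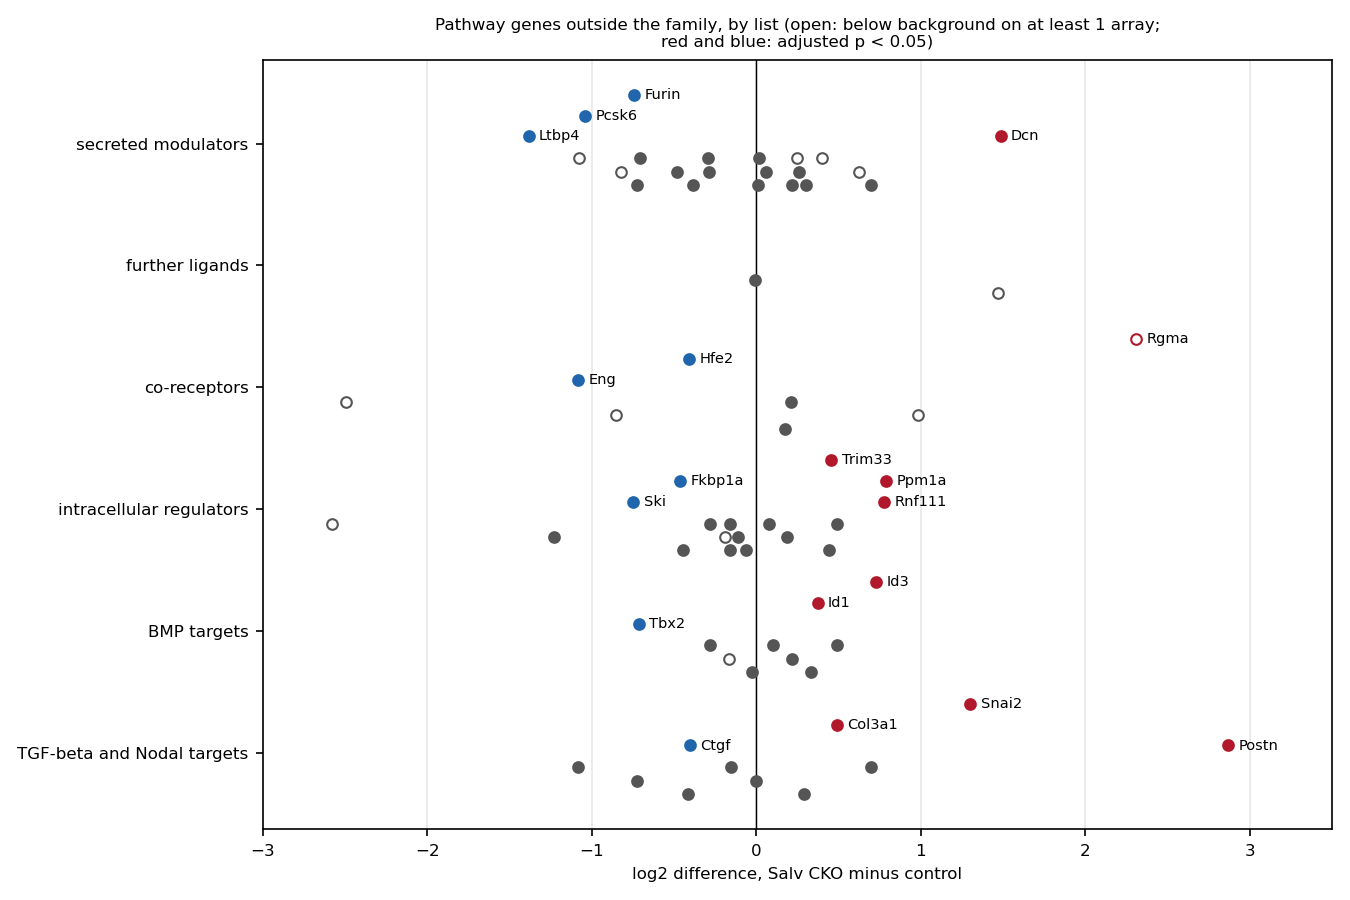
Log2 difference (x axis, Salv CKO minus control) of the 71 pathway genes outside the family, 1 row of points per list (y axis, points spread vertically for legibility). Red and blue points with names passed an adjusted p under 0.05, and open circles were below background on at least 1 array; each list of more than 2 genes holds named points on both sides of 0.

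Target genes were called in both directions as well. Of 10 known BMP targets, 2 rose and 1 fell, with a median of 0.16. Id1, a helix-loop-helix inhibitor and a widely used BMP readout, rose from 13.91 and 13.90 to 14.30 and 14.26 (0.37 ± 0.06, adjusted p = 0.0276), but it passed under none of the 3 other scalings and was at -0.09 with the values as deposited. Id3 rose from 15.06 and 14.85 to 15.73 and 15.63 (0.73 ± 0.09, adjusted p = 0.017), and did not pass with arrays centred on their median (0.59, adjusted p = 0.129) or as deposited (0.32, adjusted p = 0.17). With those settings neither Id gene was called. Tbx2, a T-box factor of the atrioventricular canal that BMP signals induce, fell from 10.43 and 10.29 to 9.67 and 9.62 (-0.71 ± 0.10, adjusted p = 0.0186). Id2 was at the background limit (-0.17 ± 0.50), and the homeobox genes gave 0.10 ± 0.08 for Msx1 (adjusted p = 0.491) and 0.49 ± 0.11 for Msx2 (adjusted p = 0.0557).

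Of 11 known TGF-beta or Nodal targets with a probe, 3 rose and 1 fell. The probe of Acta2, a smooth muscle actin, stood at the scanner's ceiling on all 4 arrays and could show no change; without it the median of the other 10 was 0.06. Periostin (Postn), a matrix protein of cushion mesenchyme, rose from 5.02 and 4.34 to 7.33 and 7.76 (2.87 ± 0.36, adjusted p = 0.0162). Snai2, which drives cells out of epithelia, rose by 1.30 ± 0.12 on the log2 scale. Since the study had itself picked Snai2 from these hearts, that rise does not stand as separate evidence. The collagen Col3a1 rose by 0.49 ± 0.08 on the probe used with -1.09 ± 0.62 on a probe above background on 3 arrays. Ctgf, a target of both TGF-beta and Yap, fell from 11.28 and 11.20 to 10.78 and 10.88 (-0.41 ± 0.08, adjusted p = 0.0453).

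Markers of cell types moved in the same pools, and whole hearts hold many types, so fewer cells of a type and less RNA per cell cannot be told apart. For endocardium and endothelium, 3 of 6 markers fell and 0 rose, with a median of -0.69. Their summed intensity was 12775 to 13621 in controls and 7640 to 8348 in Salv CKO. Tgfbr2, Eng, Acvrl1 and Smad6 are known to be active in these cells. Tgfbr2, Eng and Smad6 were called lower, whereas Acvrl1 was at 0.08 ± 0.22 (limma adjusted p = 0.855). For heart muscle, 4 of 11 fell and 0 rose, but Myh6, Actc1, Myl2 and Actn2 were at the scanner's ceiling in both control pools (Actc1 on all arrays), so their differences are cut short. Among the 7 others 3 fell (median -0.60), with sums of 147324 to 184152 in controls and 123888 to 125990 in Salv CKO. All 6 endothelial and 11 muscle markers were above background on every array. So were all 9 endoderm and all 6 second heart field markers, and 74.4% of all genes, so this does not identify the tissue. Primitive red cell markers gave 3 of 6 that fell, none of them Hba-x, which was at the ceiling on 3 arrays. Markers of tissues next to the heart rose: 4 of 7 for neural tube, 4 of 7 for neural crest, 3 of 7 for somite, 4 of 9 for endoderm, 3 of 6 for second heart field and 2 of 6 for proepicardium, with 0 that fell in each. For neural crest the summed intensity was 13756 to 14069 in controls and 49211 to 49213 in Salv CKO, mostly from the Crabp1 probe; without Crabp1 it was 494 to 552 and 1877 to 1879. The neural tube sum was 5425 to 6324 in controls and 12926 to 13285 in Salv CKO, and without Olig2, which was at -0.11 and not called, 425 to 486 and 7614 to 8585. Somite sums were 586 to 603 and 3691 to 3708, and endoderm sums 3631 to 3801 and 9203 to 9221. The second heart field sum was 3054 to 3386 in controls and 4698 to 4805 in Salv CKO, and the proepicardium sum 1185 to 1231 and 2181 to 2435. Foxd3 of the crest list, Myf5 of the somite list and Wt1, Tcf21 and Upk1b of the proepicardium list were not above background on any array. The part of these shifts in the values of the family members was not tested.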

How the data were processed

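Per the labels, RNA of pooled hearts was amplified, labelled with Cy5 and read on arrays of 1 colour. The deposited values are linear probe intensities, of which 3.37 to 5.99% per array lie below 0. How background was subtracted and values were scaled is not stated in any source used here, and the arrays had no common distribution (75th percentiles 361 to 536). Quantile normalisation used limma 3.58.1 (R 4.3.3), and values were floored at 1 and put on the log2 scale. Probes were named through the platform's table of 2013, and for each gene with 1 symbol the probe of highest mean over the 4 arrays was used. Salv CKO was compared with control over 16675 genes (lmFit, eBayes with intensity trend, two-sided, Benjamini-Hochberg, threshold 0.05). The code was run on simulated data with planted changes larger than those of the called members and with noise drawn from limma's own intensity trend. That run cannot show how the test does with changes of the size called here, or whether the trend holds. Named were all called members, members measured in 1 group only, the members best known in the early heart, up to 4 called genes per pathway list and 10 pathway genes whatever their value. Marker lists are given as counts. Members and lists were chosen with earlier results of these data known. Promoter windows come from RefSeq (GRCm38.p6). Nothing says whether pools share litters, so p-values measure the spread between these pools.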

Additional observations from a re-analysis of the deposited data

How the results depend on the processing

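The 15 alternatives gave 120 values for the 8 called members: 118 kept their sign and 60 were past the threshold. Most of these settings could not turn a sign. The floors, background limits, trend, block and tests of each probe by itself leave the 8 differences unchanged. Leaving out 1 array cannot turn a sign where the groups do not overlap, as in all 8. Only the 3 other scalings could, and the mean of probes for genes with several. Limits are the 2 pools per group, the unstated scaling and the probes of opposite sign. With any 1 array left out, no call of a member, pathway gene or marker held in limma, where the lone array is taken to vary like the other group's. The median over members was then -0.079 to 0.024. Without the intensity trend, members, pathway genes and markers called in either direction numbered 0 each in limma. At an unadjusted p under 0.05 that limma fit had 16 of 53 members and 3578 of 16675 genes. Deviations of same-numbered pools correlated at 0.053 over all genes and 0.17 over genes above background; with 2 pairs and no label that ties them, pairing was not established. With the replicate block limma called 4 members higher and 6 lower, beside 3 and 5, adding Tgfbr1 (adjusted p = 0.0181) and Nog (adjusted p = 0.0466), and 2211 genes in place of 1772. Leaving out genes at the scanner's ceiling, an alternative chosen after seeing the data, gave 20 markers higher and 9 lower, beside 20 and 10.

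With floors of 16 and of 64, 1 member was higher and 1 lower, 2 and 2 pathway genes, 13 and 4 markers, with a member median of 0; Bmpr2 was at 0.094 (floor 16) and Bambi at -0.029 (floor 64). Among genes above background on all 4 arrays 4 members were higher and 9 lower (median 0.0071), and on at least 2 arrays 3 and 9 (median -0.0020). With the mean of all probes 1 member was higher and 3 lower (median -0.13), 4 pathway genes were higher and 6 lower, and Acvr1b was at 0.23, Bmpr1b at 0.22, Gdf10 at -0.13, Tgfbr1 at -0.16, Rnf111 at -0.052, Col3a1 at -0.30 and Ltbp1 at -0.18; the means of Bmpr1b, Tgfbr1, Rnf111 and Col3a1 take in probes below background. Centred on array medians, 2 members and 6 pathway genes were higher and 6 members lower (member median -0.22), with Acvrl1 at -0.0049, Chrd at -0.078, Msx1 at -0.15 and Ltbp1 at -0.014; at the 75th percentile Fst was at 0.0072 and Msx1 at -0.0070. As deposited, 0 members were higher and 13 lower (median -0.49), 4 pathway genes higher and 17 lower, and 17 markers lower. There Acvrl1 was at -0.27, Bmp2 at -0.24, Bmp5 at -0.16, Chrd at -0.35, Inhba at -0.084, Nodal at -0.069, Smad2 at -0.24, Smad3 at -0.21, Id1 at -0.089, Col3a1 at -0.035, Msx1 at -0.42, Msx2 at -0.027, Ltbp1 at -0.28 and Bambi at -0.051. The cause of these turns was not tested.

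With 1 array left out, differences that changed sign ranged from -0.079 to 0.24 for Acvrl1, -0.23 to 0.64 for Bambi, -0.11 to 0.38 for Bmp2, -0.078 to 0.074 for Bmpr1b, -1.40 to 0.70 for Bmpr2, -0.38 to 0.47 for Chrd, -0.83 to 0.16 for Fst, -0.57 to 0.23 for Id2, -0.059 to 0.18 for Ltbp1, -0.24 to 0.52 for Nodal, -0.017 to 0.011 for Smad1, -0.14 to 0.17 for Smad2, -0.19 to 0.066 for Smad4, -0.44 to 0.30 for Smad5 and -1.60 to 0.67 for Smad7.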
